A study of Homo sapiens with 6 samples.

Results

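The genes described here are 10 components of TGF-beta, activin and BMP signaling, TGFB1, TGFB2, TGFBR2, INHBA, INHBB, BMP4, FST, SMAD7, ID1 and ID3. They were taken by name from the 40295 gene identifiers of the deposited table, and each name matched 1 identifier. The question was how the mRNA of these genes differed between cells exposed to the small molecule Y-320 and untreated cells. HDQ-P1 is an established human breast cancer cell line, in which the study tests Y-320 as an enhancer of premature termination codon readthrough. The dataset holds 3 libraries from HDQ-P1 cells that had Y-320 in the medium at 1 μM over 48 h, and 3 from untreated HDQ-P1 cells, all grown in medium with 10% fetal bovine serum. No solvent is named for the untreated cells, so the compound and its solvent cannot be told apart. The labels number the replicates but do not say whether they came from separate cultures, and the p-values then measure the spread between these libraries, which may be technical.

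TGF-beta, activin and BMP ligands are secreted dimers that bring together type II and type I receptor kinases at the cell surface. TGF-beta and activin receptors phosphorylate SMAD2 and SMAD3, BMP receptors phosphorylate SMAD1, SMAD5 and SMAD9, and both groups enter the nucleus with SMAD4. In epithelial cells TGF-beta is known for growth arrest and for loss of epithelial traits, BMPs for induction of the ID genes, and activins are held in check by follistatin. Serum itself carries ligands of this family.

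The members that fell by at least 1 log2 unit were BMP4, TGFB2, ID3, INHBB and ID1, and their promoters are printed here because these genes moved together. The promoter of INHBA is added because INHBA went the other way from INHBB. The sequences are those of RefSeq on GRCh38.p14, from 250 bases before to 50 after the annotated start, and for BMP4, which has several listed starts, the most upstream is shown. Capitals mark the letters CAGAC or their reverse complement GTCTG, which SMAD3 and SMAD4 can bind, the palindrome GGCGCC, found in SMAD-binding elements of BMP targets, and TATAAA on either strand.
BMP4 promoter, chr14:53955001-53955300, minus strand: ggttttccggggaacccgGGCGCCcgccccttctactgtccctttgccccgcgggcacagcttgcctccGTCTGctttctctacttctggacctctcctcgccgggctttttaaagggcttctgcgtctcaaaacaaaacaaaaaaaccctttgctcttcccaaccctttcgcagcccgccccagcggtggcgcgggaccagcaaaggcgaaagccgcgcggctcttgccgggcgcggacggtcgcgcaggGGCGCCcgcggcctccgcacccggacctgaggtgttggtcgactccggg
TGFB2 promoter, chr1:218345086-218345385, plus strand: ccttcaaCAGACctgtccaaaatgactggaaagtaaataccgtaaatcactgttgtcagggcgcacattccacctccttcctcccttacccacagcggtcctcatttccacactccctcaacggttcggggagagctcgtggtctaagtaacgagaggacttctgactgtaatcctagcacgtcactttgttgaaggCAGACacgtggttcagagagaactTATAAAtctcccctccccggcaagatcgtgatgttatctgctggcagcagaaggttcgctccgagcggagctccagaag
ID3 promoter, chr1:23559452-23559751, minus strand: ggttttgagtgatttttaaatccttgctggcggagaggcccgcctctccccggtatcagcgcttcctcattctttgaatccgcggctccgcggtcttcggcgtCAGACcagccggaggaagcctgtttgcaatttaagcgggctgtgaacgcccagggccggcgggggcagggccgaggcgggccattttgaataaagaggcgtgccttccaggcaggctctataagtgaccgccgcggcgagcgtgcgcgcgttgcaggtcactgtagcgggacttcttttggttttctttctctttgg
INHBB promoter, chr2:120345886-120346185, plus strand: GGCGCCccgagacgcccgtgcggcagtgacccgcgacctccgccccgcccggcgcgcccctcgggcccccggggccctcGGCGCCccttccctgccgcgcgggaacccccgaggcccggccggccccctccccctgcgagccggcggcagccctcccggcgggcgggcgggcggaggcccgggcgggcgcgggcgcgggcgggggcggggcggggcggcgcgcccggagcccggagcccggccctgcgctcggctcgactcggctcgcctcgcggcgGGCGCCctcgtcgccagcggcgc
ID1 promoter, chr20:31605039-31605338, plus strand: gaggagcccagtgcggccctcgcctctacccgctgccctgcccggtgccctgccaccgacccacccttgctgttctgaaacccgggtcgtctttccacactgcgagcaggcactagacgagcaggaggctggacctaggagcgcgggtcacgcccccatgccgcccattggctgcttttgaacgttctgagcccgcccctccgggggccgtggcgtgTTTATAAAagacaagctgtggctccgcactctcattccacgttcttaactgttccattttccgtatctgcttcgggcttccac
INHBA promoter, chr7:41703041-41703340, minus strand: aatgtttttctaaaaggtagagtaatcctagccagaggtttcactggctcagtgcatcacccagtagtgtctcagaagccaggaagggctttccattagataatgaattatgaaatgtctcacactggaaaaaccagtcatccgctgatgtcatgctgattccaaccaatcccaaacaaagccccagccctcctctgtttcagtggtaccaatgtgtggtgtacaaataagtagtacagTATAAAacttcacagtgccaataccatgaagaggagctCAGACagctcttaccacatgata

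RefSeq entries were matched for all 10 members, with 15 promoters in all. CAGAC was found in 8 of these 15 promoters (53.3%), in 5 of the genes, and in 45.3% of the 35116 human promoters of the same length. GGCGCC was found in the promoters of 2 members, INHBB and BMP4, which is 13.3% of the 15 against 19.2% of all promoters. TATAAA was found in 4 of the 15 (26.7%) against 11.5% of all. In ID1 the forward and the reverse match of TATAAA overlap. The full SMAD palindrome GTCTAGAC was in 0 of the 15 promoters and in 0.202% of all promoters. The promoter of ID1 held neither CAGAC nor GGCGCC in this window. INHBA and INHBB differed widely in base composition, with 43.3% and 88.7% G and C in these windows, where the median promoter has 58.7%. These matches are letters only and say nothing about binding in these cells.

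RNA-seq measures how many sequenced fragments come from each gene. The deposited values are estimated counts per gene made with kallisto, with totals of 21045401 to 22740535 per library. Values are given as normalized CPM, counts scaled to library size with TMM factors, in which 1 count was worth 0.0438 to 0.0480. Precision at this depth is limited for FST, the least abundant member, and high for ID1. Between replicates the chi-square of the counts over its degrees of freedom was 1.99 to 2.95, where sampling noise alone gives 1, and between a treated and an untreated library it was 39.9 to 42.0. The line is of epithelial origin, and its libraries held EPCAM, CDH1 and the keratins KRT7, KRT8, KRT18 and KRT19, markers whose summed level was 10916 to 11425 normalized CPM in untreated and 6834 to 6895 in treated libraries, with 5 of the 6 lower and EPCAM higher. Fibroblast markers were also present, but unevenly. In untreated cells COL1A2, COL1A1, LUM and PDGFRB had means of 148.0, 49.3, 46.5 and 11.7 normalized CPM. PDGFRA and DCN were scarce (untreated means 0.793 and 1.23) and did not pass the threshold. The sum of COL1A1, COL1A2, LUM, PDGFRA, PDGFRB and DCN was 246.1 to 271.9 normalized CPM without Y-320 and 125.7 to 140.5 with Y-320, with 4 of the 6 lower (adjusted p under 0.05). The endothelial markers PECAM1, VWF, CDH5 and KDR summed to 17.7 to 19.3 normalized CPM untreated and 14.3 to 18.3 in treated libraries, but PECAM1 was higher (log2 fold change 1.22) and CDH5 lower (-1.29), while VWF did not pass the threshold and KDR was not tested. Among leukocyte markers, CD3E was at 3 counts or fewer in every library, PTPRC did not pass the threshold and LYZ was too scarce to be tested, while CD68 rose from 36.5 ± 1.2 to 69.7 ± 3.37 normalized CPM (mean ± SD, n = 3). The part of these marker changes in the results below was not tested, and in bulk RNA fewer cells of a type and less RNA per cell cannot be told apart.

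All 10 members passed the filter on low counts. Of these, 7 were lower in treated cells (TGFB2, INHBB, BMP4, TGFBR2, SMAD7, ID1 and ID3), 1 was higher (INHBA) and 2 did not pass the threshold (TGFB1 and FST), by the quasi-likelihood test of edgeR with a threshold of 0.05 on the p adjusted over 16580 genes. Across all genes tested, 25.4% were lower and 26.2% were higher, together 51.5%. The members lower, 7 of 10, were above that background, and the members higher, 1 of 10, were below it. The members were chosen with earlier results of these data known, so this contrast describes them and is no independent test. A fall of at least 1 log2 unit was found for 5 of the 10 members and for 2.59% of all genes, and a rise of that size for none of the members and 2.43% of all genes. The median log2FC, the log2 fold change with Y-320 against untreated cells, was -0.92 over the members and 0.00 over all genes tested. Treated and untreated libraries did not overlap for the 8 members that changed, 7 of them lower (29.4% of all genes) and 1 higher (29.8%), together 59.2% of all genes.

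**Figure D1:**
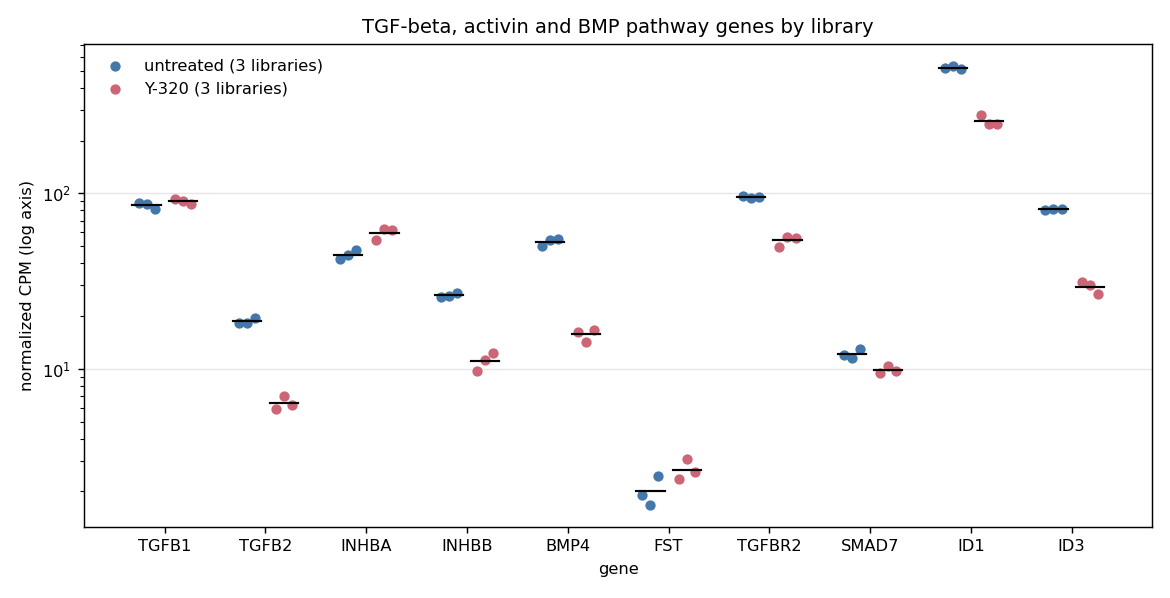
Normalized CPM (log axis) of each member in each library, with untreated libraries in blue, Y-320 libraries in red and the group mean as a black line. The groups are apart for 8 genes and overlap for TGFB1 and FST.

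**Figure D2:**
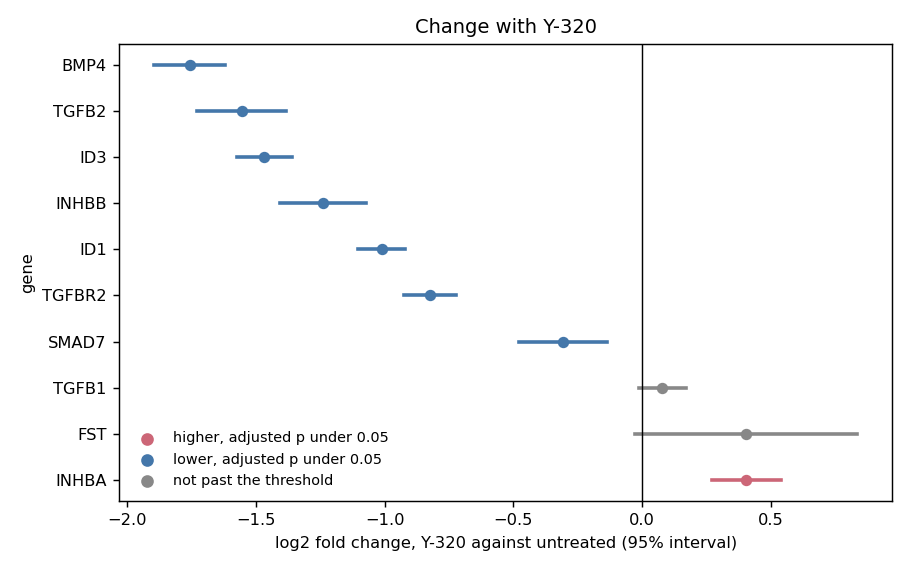
Log2 fold change of each member with Y-320 against untreated cells (point) and its 95% interval (line). The values run from -1.76 for BMP4 to 0.41 for INHBA, and the intervals of TGFB1 and FST include 0.

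The ligands went different ways. TGFB1 (ENSG00000105329, chromosome 19 from 41301587 to 41353922 on the minus strand, hg38) encodes the most widely expressed TGF-beta isoform. It had 88.2, 86.9 and 81.1 normalized CPM in untreated and 93.5, 90.4 and 86.6 in Y-320 libraries, each in the order of replicates 1, 2 and 3 as in all such triples here. The groups overlapped, with Y-320 replicate 3 under 2 of the untreated libraries. Its log2FC was 0.08 (SE 0.041, 95% interval -0.012 to 0.17, adjusted p = 0.134 by edgeR), so a change larger than 0.17 upward lies outside the interval. Sequence is shared with other annotated genes at 5.41% of the 31-base words of TGFB1, mostly with the overlapping HNRNPUL1.

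TGFB2 (ENSG00000092969, chromosome 1 from 218345336 to 218444619, plus strand) encodes a second TGF-beta isoform, which depends on the coreceptor TGFBR3 for strong receptor binding. It had 18.2, 18.3 and 19.6 normalized CPM without Y-320 and 5.91, 6.96 and 6.18 with Y-320. All treated libraries lay far below all untreated ones. TGFB2 fell to 34.0% of the untreated level, with a log2FC of -1.56 (SE 0.078, adjusted p = 8.63e-08 by edgeR), and 99.0% of the genes tested had a larger log2FC. Its reads carry an uncertainty, because 33.3% of its 31-base words also occur in other annotated genes. These are mostly the overlapping TGFB2-OT1 on the same strand and the antisense TGFB2-AS1. Other genes with a value of their own in these data share only 0.214% of the words. Reads of the overlapping transcripts could thus have been counted as TGFB2, and no source used here says whether counting used strand.

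INHBA and INHBB encode the beta subunits that form activin A and activin B, or inhibins when paired with INHA. INHBA (ENSG00000122641, chromosome 7 from 41667168 to 41705834, minus strand) had 42.3, 44.8 and 47.3 normalized CPM without Y-320 and 54.1, 62.4 and 61.6 with Y-320. It rose with a log2FC of 0.41 (SE 0.060, adjusted p = 2.43e-04 by edgeR), the single member to do so. The gap between the groups was 54.1 against 47.3, and 13.5% of the genes tested had a larger log2FC. INHBB (ENSG00000163083, chromosome 2 from 120346136 to 120351803, plus strand) had 25.7, 26.0 and 26.9 normalized CPM without Y-320 and 9.76, 11.3 and 12.3 with Y-320. INHBB fell to 42.3% of the untreated level (log2FC -1.24, SE 0.075, adjusted p = 3.24e-07 by edgeR). The untreated libraries were close together, and the highest treated library was under the lowest of them.

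BMP4 (ENSG00000125378, chromosome 14 from 53949736 to 53958761, minus strand) encodes a BMP ligand that signals through SMAD1, SMAD5 and SMAD9. It had 50.2, 53.9 and 55.2 normalized CPM without Y-320 and 16.2, 14.2 and 16.7 with Y-320. This was the member that fell most, to 29.6% of the untreated level, with a log2FC of -1.76 (SE 0.062, adjusted p = 7.88e-09 by edgeR). Of its 31-base words, 15.2% also occur in an unnamed antisense gene, ENSG00000287156, which has no value of its own in these data. Reads of that gene could have been counted as BMP4 if counting did not use strand.

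FST (ENSG00000134363, chromosome 5 from 53480626 to 53487134, plus strand) encodes follistatin, the secreted protein that binds and neutralizes activins and also binds some BMPs. It was scarce, with 42, 35 and 54 counts without Y-320 and 53.7, 67 and 57 with Y-320. In normalized CPM these were 1.90, 1.68 and 2.45 against 2.35, 3.07 and 2.57. Untreated replicate 3 lay above Y-320 replicate 1, so the groups overlapped. The log2FC of FST was 0.40 (SE 0.19, 95% interval -0.027 to 0.84, adjusted p = 0.108 by edgeR). The value was close to that of INHBA, but the interval reaches from no change to nearly 1 log2 unit.

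TGFBR2 (ENSG00000163513, chromosome 3 from 30606601 to 30694142, plus strand) encodes the type II receptor that binds TGF-beta and starts signaling by phosphorylating the type I receptor. It had 96.9, 94.3 and 95.4 normalized CPM without Y-320 and 49.7, 56.3 and 55.9 with Y-320. TGFBR2 fell to 56.5% of the untreated level, with a log2FC of -0.82 (SE 0.045, adjusted p = 1.57e-07 by edgeR). Its partner TGFBR1, the type I receptor, moved the opposite way. TGFBR1 rose from 31.6 ± 1.34 to 50.6 ± 2.60 normalized CPM (mean ± SD, n = 3), with a log2FC of 0.68 (adjusted p = 1.36e-06 by edgeR).

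SMAD7 (ENSG00000101665, chromosome 18 from 48919853 to 48950965, minus strand) encodes an inhibitory SMAD that blocks the type I receptors and is itself induced by TGF-beta and BMP signaling. It had 11.9, 11.6 and 13.0 normalized CPM without Y-320 and 9.45, 10.4 and 9.70 with Y-320, with a small gap between the groups. SMAD7 fell to 80.9% of the untreated level, with a log2FC of -0.31 (SE 0.077, adjusted p = 0.00697 by edgeR). With DESeq2 on the same genes the adjusted p was 0.0512, which misses the threshold. The other inhibitory SMAD, SMAD6, which acts mainly on BMP signaling, fell much further, from 79.0 ± 2.07 to 24.8 ± 1.49 normalized CPM (mean ± SD, n = 3), with a log2FC of -1.67 (adjusted p = 2.01e-09 by edgeR).

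ID1 and ID3 encode helix-loop-helix proteins without a DNA-binding region, which hold back differentiation factors and are direct BMP targets. ID1 (ENSG00000125968, chromosome 20 from 31605283 to 31606515, plus strand) was the most abundant member, with 517.3, 532.3 and 512.0 normalized CPM without Y-320 and 278.0, 247.9 and 248.0 with Y-320. ID1 fell to 49.6% of the untreated level (log2FC -1.01, SE 0.041, adjusted p = 2.26e-08 by edgeR). ID3 (ENSG00000117318, chromosome 1 from 23557926 to 23559501, minus strand) had 80.5, 81.1 and 81.8 normalized CPM without Y-320 and 31.2, 30.0 and 26.8 with Y-320. ID3 fell to 36.2% of the untreated level (log2FC -1.47, SE 0.048, adjusted p = 4.83e-09 by edgeR). The spread of ID3 in untreated cells, an SD of 0.643, was very small against its fall. The 2 other ID genes fell as well. ID2 went from 22.1 ± 0.861 to 10.6 ± 0.393 normalized CPM (mean ± SD, n = 3), with a log2FC of -1.06 (adjusted p = 2.05e-07 by edgeR). ID4 went from 11.7 ± 0.633 to 4.47 ± 0.0474 (mean ± SD, n = 3), with a log2FC of -1.38 (adjusted p = 4.08e-07 by edgeR). No 31-base word of ID1, ID3, SMAD7 or INHBB occurs in another annotated gene.

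Ratios of counts within a library do not depend on how libraries are scaled, and 4 were compared. They restate the changes of the single genes given above, so they are no independent test. How often the ratio of any gene pair sets the groups apart was not computed. INHBA had 1.65, 1.72 and 1.76 counts for each count of INHBB in untreated libraries and 5.54, 5.54 and 5.02 with Y-320, so the ratio was 3.14-fold higher. For TGFB1 to TGFB2 the ratio was 4.86, 4.76 and 4.14 untreated and 15.8, 13.0 and 14.01 with Y-320, 3.11-fold higher. ID1 to ID3 went from 6.42, 6.57 and 6.26 to 8.92, 8.26 and 9.25, 1.37-fold higher. In these 3 ratios the groups were apart (exact permutation test, two-sided, p = 0.1, the smallest that 3 libraries against 3 allow, and 0.133 adjusted over the 4 ratios). FST to INHBA was 0.0449, 0.0375 and 0.0517 untreated and 0.0435, 0.0491 and 0.0417 with Y-320, overlapping, with a mean log2 change of 0.01 (exact permutation p = 1, adjusted p = 1). Its sign turned when a single library was left out, to -0.11 without untreated replicate 2 and to -0.06 without Y-320 replicate 2.

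**Figure D3:**
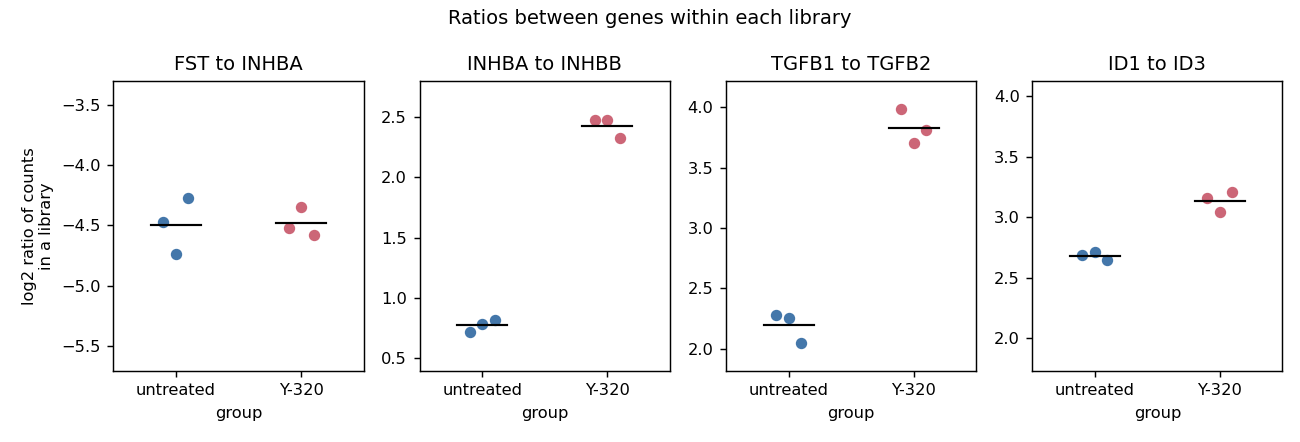
Log2 ratio of the counts of a pair of genes within each library, for untreated (blue) and Y-320 (red) libraries, with the group mean as a black line and the same span on each vertical axis. The groups are apart for INHBA to INHBB, TGFB1 to TGFB2 and ID1 to ID3, and overlap for FST to INHBA.

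Levels of different genes were compared as normalized CPM per kilobase of annotated exons. In untreated cells the order was ID1 (422.2), ID3 (54.2), TGFB1 (26.2), BMP4 (17.2), TGFBR2 (13.9), INHBB (8.18), INHBA (5.41), TGFB2 (3.09), SMAD7 (3.08) and FST (0.730). TGFB2 and SMAD7 overlapped over libraries, and every other pair of neighbours was apart. With Y-320 the order became ID1 (209.2), TGFB1 (27.6), ID3 (19.6), TGFBR2 (7.88), INHBA (7.17), BMP4 (5.07), INHBB (3.46), SMAD7 (2.50), TGFB2 (1.05) and FST (0.968). TGFBR2 and INHBA overlapped, as did TGFB2 and FST. INHBB thus stood above INHBA per kilobase in untreated cells and below it with Y-320, but with the mean transcript length in place of all exons INHBA (17.97) was above INHBB (8.18) in untreated cells already.

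The wider pathways were described with 6 lists that hold 113 further genes, of which 89 passed the filter on low counts. Of these 89, 38 were lower (42.7%) and 25 higher (28.1%) with Y-320, against 25.4% and 26.2% of all genes tested. Their median log2FC was -0.10. The lists too were chosen with earlier results of these data known, so their shares are descriptive only. A gene can be in more than 1 list. Values with ± are means and SDs over the 3 libraries of a group, untreated first.

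**Figure D4:**
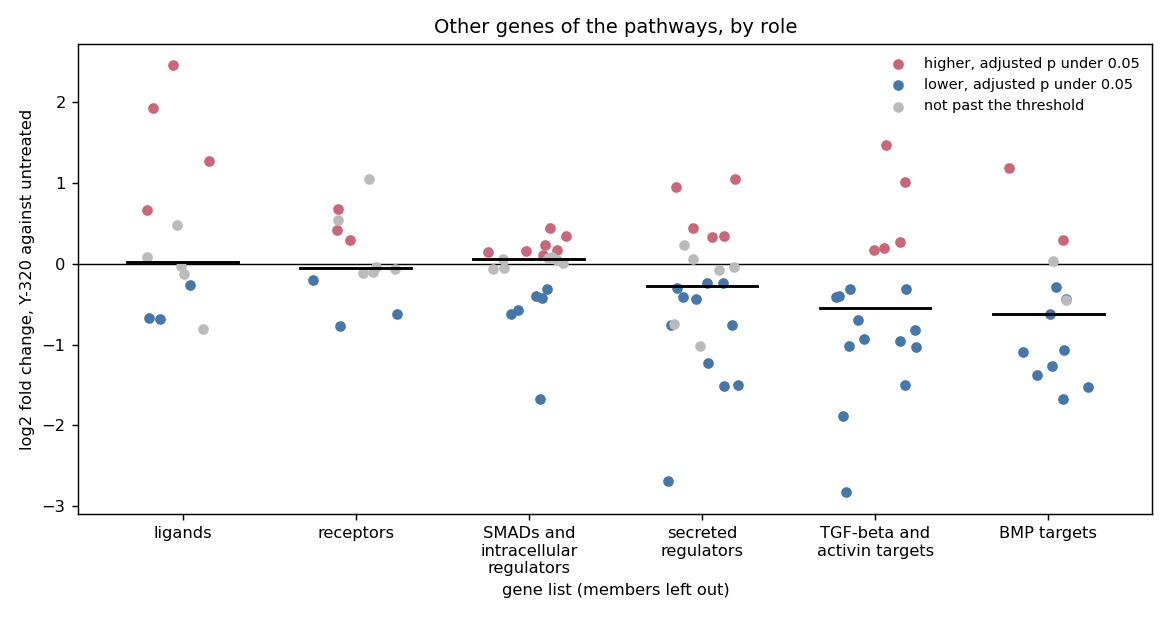
Log2 fold change (Y-320 against untreated) of the tested genes in each of the 6 pathway lists, 1 point per gene, colored by whether the adjusted p was under 0.05, with the list's median as a black line. The medians run from 0.05 for SMADs and intracellular regulators to -0.62 for BMP targets.

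Among 28 further ligands and inhibin subunits, 16 were too scarce to be tested. Of the other 12, 4 were higher (33.3%) and 3 lower (25%), against 26.2% and 25.4% of all genes tested (median 0.03). INHBE, a liver-enriched activin subunit gene, went from 2.18 ± 0.396 to 12.0 ± 1.94 normalized CPM (mean ± SD, n = 3), with a log2FC of 2.46 (adjusted p = 6.21e-07 by edgeR). GDF15, a stress-induced distant member of the family, went from 17.7 ± 0.723 to 67.4 ± 0.176, with a log2FC of 1.93 (adjusted p = 5.24e-10 by edgeR). BMP6 rose by 1.27 (adjusted p = 0.00154 by edgeR) from 0.648 ± 0.137 normalized CPM. The fourth was BMP8B (0.66, named after its value was seen). INHA, which turns beta subunits into inhibins, fell by 0.67 on the log2 scale (adjusted p = 0.00992 by edgeR), a call lost with DESeq2 (adjusted p = 0.0512). The other lower ligands, BMP3 (-0.69) and BMP7 (-0.27), were named after their values were seen, and both calls were lost with DESeq2 (adjusted p = 0.215 and 0.0527). That of BMP3 was also lost in each of the 6 fits without 1 library (adjusted p = 0.0603 to 0.0913 by edgeR). TGFB3 had 1.35 ± 0.270 and 1.24 ± 0.179 normalized CPM, with a log2FC of -0.12 (adjusted p = 0.705 by edgeR). BMP2 had at most 1 count in a library and was not tested.

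Of 13 further receptors and coreceptors, 12 were tested. There were 3 higher (25%) and 3 lower (25%), against 26.2% and 25.4% of all genes tested (median -0.05). Besides TGFBR1, the activin type II receptor gene ACVR2B rose with a log2FC of 0.41 (adjusted p = 0.00446 by edgeR), as did ACVR1 (0.30). TGFBR3, the coreceptor betaglycan, fell from 13.8 ± 1.31 to 8.05 ± 0.680 normalized CPM (mean ± SD, n = 3), with a log2FC of -0.78 (adjusted p = 5.92e-05 by edgeR). ENG, the coreceptor endoglin, fell by 0.62 on the log2 scale (adjusted p = 3.32e-06 by edgeR), and BMPR2, the BMP type II receptor, by 0.21. ACVR1 and BMPR2 were named after their values were seen. With upper-quartile scaling 5 of these genes were lower in place of 3.

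Among the SMADs downstream of TGF-beta and activin receptors, SMAD3 had a log2FC of 0.11 (adjusted p = 0.0128 by edgeR), a call lost with DESeq2 (adjusted p = 0.0572) and with upper-quartile scaling (adjusted p = 0.0515 by edgeR). SMAD4, the partner of both groups, rose from 32.1 ± 2.33 to 40.8 ± 1.54 normalized CPM (mean ± SD, n = 3), with a log2FC of 0.34 (adjusted p = 4.08e-04 by edgeR). SMAD2 (-0.07, adjusted p = 0.140 by edgeR) did not pass the threshold, although it did with upper-quartile scaling (adjusted p = 0.0425 by edgeR). Of the SMADs downstream of BMP receptors, SMAD1 fell from 17.5 ± 0.790 to 11.8 ± 0.634 normalized CPM (mean ± SD, n = 3), with a log2FC of -0.57 (adjusted p = 4.02e-05 by edgeR). SMAD9 fell by 0.62 on the log2 scale (adjusted p = 0.0131 by edgeR), a call lost with DESeq2 (adjusted p = 0.0797) and without untreated replicate 3 (adjusted p = 0.0579 by edgeR). SMAD5, the other SMAD of this group, had 72.0 ± 2.63 and 74.9 ± 0.770 normalized CPM and did not pass the threshold (log2FC 0.06, adjusted p = 0.187 by edgeR). Over all 20 SMADs and intracellular regulators, 7 were higher (35%) and 6 lower (30%), against 26.2% and 25.4% of all genes tested (median 0.05). SMURF1, a ubiquitin ligase that targets SMADs and receptors, rose by 0.45 (adjusted p = 5.19e-06 by edgeR).

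Of 28 further secreted or membrane-bound regulators, 22 were tested. There were 11 lower (50%) and 5 higher (22.7%), against 25.4% and 26.2% of all genes tested (median -0.27). CHRDL1, a BMP antagonist, had 43.1, 45.1 and 40 counts without Y-320 and 4.02, 7.08 and 9.02 with Y-320, with a log2FC of -2.70 (adjusted p = 2.92e-05 by edgeR). BMPER, a BMP-binding protein, fell from 12.7 ± 0.797 to 4.46 ± 0.191 normalized CPM (mean ± SD, n = 3), with a log2FC of -1.51 (adjusted p = 2.55e-07 by edgeR). SOSTDC1, another BMP antagonist, fell by 1.23 on the log2 scale (adjusted p = 0.00245 by edgeR). THBS1, thrombospondin, which can activate latent TGF-beta and is also a TGF-beta target, fell from 295.4 ± 14.7 to 104.3 ± 9.29 normalized CPM (mean ± SD, n = 3), with a log2FC of -1.50 (adjusted p = 1.44e-08 by edgeR). FSTL3, the relative of follistatin, had 49.7 ± 1.66 and 47.0 ± 2.35 normalized CPM (mean ± SD, n = 3) and did not pass the threshold (log2FC -0.08, adjusted p = 0.162 by edgeR).

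Known targets of the pathways were described as lists of their own, which share genes with the component lists. PMEPA1, SKIL, LTBP2, THBS1 and TGIF1 are TGF-beta targets that were also counted among the components. Of 18 TGF-beta and activin targets, all tested, 13 were lower (72.2%) and 5 higher (27.8%), with a median log2FC of -0.55. The shares over all genes tested were 25.4% lower and 26.2% higher, so the higher share was near that background. CCN2, the connective tissue growth factor gene, had 51.1, 55.7 and 58.6 normalized CPM without Y-320 and 7.44, 7.83 and 7.95 with Y-320, with a log2FC of -2.83 (adjusted p = 7.65e-10 by edgeR). TAGLN, which encodes the actin-binding protein transgelin, fell from 18.1 ± 1.69 to 4.90 ± 0.229 normalized CPM (mean ± SD, n = 3), with a log2FC of -1.88 (adjusted p = 6.63e-08 by edgeR). Against this, CDKN1A, the gene of the cell cycle inhibitor p21, rose from 39.3 ± 2.53 to 109.1 ± 4.62 normalized CPM (mean ± SD, n = 3), with a log2FC of 1.47 (adjusted p = 5.27e-09 by edgeR). The other 4 that were higher, named after their values were seen, were BHLHE40 (1.01), JUNB (0.27), CDKN2B (0.19) and TGIF1 (0.17), and the call of CDKN2B was lost without untreated replicate 1, without Y-320 replicate 2 or without Y-320 replicate 3 (adjusted p = 0.0661, 0.0604 and 0.0605 by edgeR). The 4 fibroblast markers that fell, COL1A1, COL1A2, LUM and PDGFRB, moved in the same direction as most of this list, with log2FC values of -0.70, -0.88, -1.56 and -1.82, and their part in it was not tested.

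Of 14 further BMP targets, 13 were tested, with 9 lower (69.2%) and 2 higher (15.4%), and a median log2FC of -0.62. Of all genes tested, 25.4% were lower and 26.2% higher. SMAD6, SMAD9 and BAMBI of this list were also counted among the components. The lower call of MSX1 (-0.29, adjusted p = 0.0475 by edgeR) was weak, holding in 6 of the 15 settings compared below. MSX1 was named after its value was seen. Besides SMAD6, ID2 and ID4, ATOH8, a transcription factor gene, fell from 8.38 ± 0.640 to 2.91 ± 0.269 normalized CPM (mean ± SD, n = 3), with a log2FC of -1.52 (adjusted p = 1.94e-06 by edgeR). GATA2, also a transcription factor gene, fell from 77.1 ± 2.40 to 31.9 ± 2.36 normalized CPM (mean ± SD, n = 3), with a log2FC of -1.27 (adjusted p = 1.78e-08 by edgeR). The 2 that were higher, RUNX2 (0.30) and HEY1 (1.19), were named after their values were seen. HEY1 had 12, 5 and 5 counts without Y-320 and 13, 19 and 20 with Y-320, and its call was lost with DESeq2 (adjusted p = 0.109) and in 4 of the 6 fits without 1 library, those without untreated replicate 2, untreated replicate 3, Y-320 replicate 2 or Y-320 replicate 3 (adjusted p = 0.0916 to 0.109 by edgeR).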

How the data were processed

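RNA of untreated and Y-320-treated HDQ-P1 cells (n = 3 each) was sequenced on an Illumina platform. The authors deposited estimated counts per Ensembl gene, not normalized, and the submitters' processing notes name kallisto 0.46.1 and hg38. The Ensembl release and the strand setting are not given in the sources used here. The study combined several pipelines whose tools its methods do not name, so a single count model was used here.

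Estimated counts were rounded, filtered with filterByExpr (minimum count 10, total 15), scaled by TMM and fitted with the quasi-likelihood test of edgeR 4.0.16 (R 4.3.3) without a block, with Benjamini-Hochberg adjustment over 16580 genes and a threshold of 0.05. Standard errors and 95% intervals follow from its F statistic. Names were matched for 35390 of 40295 identifiers. Positions, lengths and shared 31-base words came from GENCODE 44 on hg38, and promoters from RefSeq on GRCh38.p14. Counts were also simulated with 200 changed genes and the same dispersion for every gene. In the right direction, the fit on 16404 genes called 94.3% of those changed by 1 log2 unit and 75.8% of those changed by 0.5. Of its calls, 4.92% were false. In the data 51.5% of the genes tested passed the threshold, so these rates may not carry over.

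The members and lists were chosen with earlier results of these data known. Named genes are the members, their close relatives, and in each list the 4 with the largest change past the threshold and a mean of at least 1 CPM. Alternatives were no filter, a stricter filter, library size and upper-quartile scaling, DESeq2 1.42.0, limma-voom (limma 3.58.1), unrounded counts, a replicate block and each library left out. Python 3.11.15 and scipy 1.17.1 gave the permutation tests. A marker of the leukocyte list is not reported here.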

Additional observations from a re-analysis of the deposited data

How the results depend on the processing

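Over the 15 settings, the members' log2FC values kept their direction, and TGFB2, TGFBR2, INHBA, INHBB, BMP4, ID1 and ID3 stayed past the threshold in each, while SMAD7 missed it with DESeq2 and FST never passed it. No shared effect of the replicate numbers was seen. Deviations from the group means correlated by -0.0024 to 0.015 between same-numbered and by -0.044 to 0.040 between other libraries. Of the 3 untreated libraries, 0 correlated best with their own number. With 3 libraries in each group this cannot show whether same-numbered libraries were paired in the experiment. With the replicate block, TGFB1 passed the threshold (log2FC 0.08, adjusted p = 0.0492 by edgeR), so that 2 members were higher in place of 1. The block also ended the calls of HEY1 and BMP3 (adjusted p = 0.0556 and 0.0566 by edgeR). It changed no other call among the named genes, MSX1 and RGMA left aside. The lower calls of MSX1 and RGMA each held in 6 of the 15 settings. RGMA (-0.24, adjusted p = 0.0441 by edgeR without the block) was named after its value was seen. With the block 35 of the other pathway genes were lower in place of 38, and 24 higher in place of 25. Leaving out each library gave 1 member higher and 7 lower every time, 22 to 25 other pathway genes higher and 35 to 37 lower. The change of the log2 ratio ranged from -0.11 to 0.12 for FST to INHBA, turning to -0.11 and -0.06 without untreated replicate 2 or Y-320 replicate 2, from 1.63 to 1.70 for INHBA to INHBB, from 1.56 to 1.70 for TGFB1 to TGFB2 and from 0.42 to 0.50 for ID1 to ID3. The log2FC of TGFB3, -0.12 with all libraries, ranged from -0.27 to 0.0094, the latter without untreated replicate 3. With DESeq2, 0 of the further ligands were lower in place of 3. Of the 20 levels per kilobase, 18 moved by more than the spread between libraries when the mean transcript length was used. Low counts limit the precision of FST among the members, and of scarce further genes such as HEY1, BMP6, BMP3, TGFB3 and CHRDL1.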

Other observations

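The genes of secreted BMP antagonists did not all move one way. NOG, which encodes noggin, had 64, 63 and 67 counts in untreated cells and 138, 119 and 129 with Y-320, with a log2FC of 0.95 (adjusted p = 4.96e-05 by edgeR). CHRD, which encodes chordin, had 37.4, 26.3 and 38.8 estimated counts without Y-320 and 81.0, 61.5 and 75.2 with Y-320, with a log2FC of 1.05 (adjusted p = 8.31e-04 by edgeR). In both genes every treated library lay above every untreated one. The antagonist genes CHRDL1 and SOSTDC1 went the other way, and the differences between these genes were not tested. LTBP4, whose product binds latent TGF-beta in the matrix, rose by 0.44, as did NBL1 (0.34), a BMP antagonist gene, and RGMB (0.34), a BMP coreceptor gene. These 5 genes are all those of the list of secreted or membrane-bound regulators that were higher, and they were named after their values were seen.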
